A study of Homo sapiens with 8 samples.

Results

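MIR15B, MIR15A and MIR424 are the genes of the miR-15/16 seed family that were listed by symbol for this array. They were chosen as the rows of the array table whose probe gene symbol is one of these 3 names. Each gene occupied 3 consecutive rows, so the family accounted for 9 of 621 rows, and for 3 of the 67 features (sets of 3 rows) that carried a gene symbol. MicroRNA was measured with Cy3 on 1-colour arrays in K562, a human line from a myeloid leukaemia whose cells can take on red cell features. Uninduced K562 cells were the day 0 sample. The later samples were K562 cells adapted to the serum-free medium StemLineII and given 50 ng/ml interleukin 3 and 7.5 U/ml erythropoietin, taken on days 2, 4, 6, 8, 10 and 22. No label says whether the day 0 cells had already been moved from serum to StemLineII. The extraction protocol names CD34 cells, whereas every other label names K562, which is 1 cell line. A day 15 column was left out, because in 621 of 621 rows it was the average (within 0.01 units) of days 10 and 22.

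MicroRNAs bind messenger RNAs mainly through their seed, the bases near the 5′ end, so family members with the same seed share many targets. The miR-15/16 family is known for restraining cell cycle and survival genes such as CCND1, CCNE1 and BCL2, and its loss with a deletion on chromosome 13 is a classic lesion of chronic lymphocytic leukaemia. In blood cells, miR-15a with its neighbour miR-16 is known to repress MYB, a regulator of red cell progenitors, and miR-424 is known from the maturation of monocytes.

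The sequences below are shown because they are what defines the family: the seed, bases 2 to 8, is in capitals, and the RefSeq table for GRCh38.p14 held both arms of all 3 genes.
miR-15b-5p: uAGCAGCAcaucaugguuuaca
miR-15a-5p: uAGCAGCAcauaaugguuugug
miR-424-5p: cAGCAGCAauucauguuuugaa
miR-15b-3p: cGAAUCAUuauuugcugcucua
miR-15a-3p: cAGGCCAUauugugcugccuca
miR-424-3p: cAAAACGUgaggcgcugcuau
The 5p arms shared the seed AGCAGCA, and the 3p arms had 3 different seeds. An array symbol names the gene and not the arm, so the arm that each probe detects is unknown.

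Beyond the seed, miR-15b-5p and miR-15a-5p were closely alike. They were identical at 18 of 22 positions and differed by C12A, A20G, C21U and A22G, counted from 1 at the 5′ end with the miR-15b base first. miR-424-5p was identical to miR-15b-5p at 16 of 22 positions and to miR-15a-5p at 15 of 22. Of 2370 mature human microRNAs in the table, 7 carried AGCAGCA at bases 2 to 8 (0.295%), from 8 genes: the 3 measured here and MIR16-1, MIR16-2, MIR195, MIR497 and MIR6838. Among 117 mature sequences of the named genes on the array, only the 5p arms of MIR15B, MIR15A and MIR424 held these letters at any position. Sequences were found for 65 of the 67 named genes.

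The 3 genes lie on different chromosomes, so they are not products of 1 transcript. In GRCh38.p14 the MIR15B hairpin is at chr3:160404588-160404685 on the plus strand, within the span of SMC4, which encodes a condensin subunit. The MIR15A hairpin is at chr13:50049119-50049201 on the minus strand, within the span of the long noncoding RNA gene DLEU2. The MIR424 hairpin is at chrX:134546614-134546711 on the minus strand and overlaps the span of the long noncoding RNA gene MIR503HG.

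The arrays differed widely in brightness, and each time point had 1 array. From dimmest to brightest spot they spanned 15443 units on day 0 but 554 on day 22, and every deposited value was relative to the mean of its array. The median spot lay 112, 261, 312 and 131 units above the dimmest on days 0, 2, 4 and 6, and 46, 60 and 63 on days 8, 10 and 22, so a high intensity on days 2 and 4 was common to the array. The arrays also fell into 2 sets by the order of their spots: of the 30 brightest features, 23 to 29 had the third spot above the first on days 0 to 6, but 7 to 11 on days 8 to 22. Intensities are therefore given as units above the dimmest spot of the same array, with the SD of 3 spots, which covers spotting and reading only. Normalized levels are log2 values after background correction and quantile normalization, which gives all arrays the same distribution. Probes differ in affinity, so a higher signal of 1 gene than of another does not mean that it was more abundant. No label gives separate cultures for the time points, so the p-values cover the scatter among these 7 arrays and nothing more. The number of arrays limits the precision of every comparison. Of 4 defining red cell microRNA genes listed (MIR451A, MIR144, MIR486-1 and MIR486-2), 0 were among the named features, so the lineage label was not checked with them.

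MIR15B gave a bright signal that was highest on day 4 and lowest on day 22. Its intensity was 671 ± 176, 760 ± 96.3 and 2855 ± 263 units on days 0, 2 and 4 (SD, n = 3 spots). It was 1296 ± 72.7, 1035 ± 29.7, 620 ± 52.7 and 95.3 ± 4.73 units on days 6, 8, 10 and 22 (SD, n = 3 spots). The 3 spots of day 4 lay between 2578 and 3101 units, above the spots of every other array, and those of day 22 lay between 90 and 99 units, below them. Days 2, 0 and 10 followed each other in the order of intensity with overlapping spots.

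After normalization the high values of MIR15B formed a plateau from day 4 to day 10. Its log2 level was 9.20, 8.75, 10.11 and 9.95 on days 0, 2, 4 and 6. It was 10.39, 9.95 and 7.80 on days 8, 10 and 22. Days 8, 4, 6 and 10 were the 4 highest, each with spots that overlapped those of the next in order. Days 0, 2 and 22 lay below them in that order, with gaps of 0.76, 0.44 and 0.96 that separated the spots of neighbours.

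MIR15A, which lies in the region of chromosome 13 lost in chronic lymphocytic leukaemia, was also highest on day 4. From day 8 on its intensity was low, but the arrays were dimmer too. Their median spot lay at 46, 60 and 63 units on days 8, 10 and 22, below that of every earlier array. Its intensity was 245 ± 69.8, 450.3 ± 11.0 and 859 ± 56.4 units on days 0, 2 and 4 (SD, n = 3 spots). It was 304 ± 17.4, 93.0 ± 9.54, 101 ± 10.0 and 52.0 ± 3.0 units on days 6, 8, 10 and 22 (SD, n = 3 spots). The spots of day 4 did not overlap those of any other day. Spots of days 8 and 10 overlapped each other and stayed below those of days 0 to 6.

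On the normalized scale MIR15A stood at 8.00, 7.84, 8.64 and 8.28 on days 0, 2, 4 and 6. It was at 7.70, 7.65 and 6.71 on days 8, 10 and 22. The spots of day 4 lay above all others and those of day 22 below all others. Between these, neighbours in order overlapped for days 6 and 0, days 0 and 2, and days 8 and 10, so their order is not settled by the spots.

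**Figure D1:**
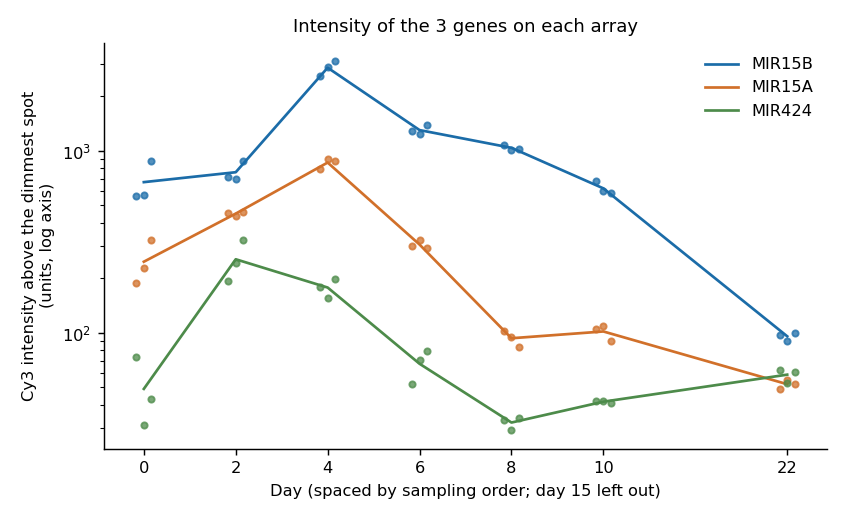
Cy3 intensity above the dimmest spot of the array (log axis, units) for MIR15B, MIR15A and MIR424 against day, spaced by sampling order. Points are single spots and lines join the means of 3 spots; MIR15B and MIR15A are highest on day 4 (2855 and 859 units) and lowest on day 22 (95.3 and 52.0 units).

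MIR424, which is known from monocyte maturation, gave a dim signal on every array. Its intensity was 49.0 ± 21.6, 253 ± 66.3 and 177 ± 21.5 units on days 0, 2 and 4 (SD, n = 3 spots). It was 67.3 ± 13.9, 32.0 ± 2.65, 41.7 ± 0.58 and 58.7 ± 4.93 units on days 6, 8, 10 and 22 (SD, n = 3 spots). All 21 of its spot values were at or below the mean of their array, against 11 of 21 for MIR15A and 0 of 21 for MIR15B. Most spots were: the share over all spots ran from 67.1% on day 22 to 87.8% on day 0. Its log2 levels were 6.17, 7.04, 6.44 and 6.45 on days 0, 2, 4 and 6, and 6.68, 6.62 and 6.94 on days 8, 10 and 22. In the order of these levels (days 2, 22, 8, 10, 6, 4 and 0) the spots of all 6 pairs of neighbours overlapped.

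Markers of tissues foreign to these cultures show what signal arises where no expression is expected. Of 26 listed, 6 were among the named features: MIR429 of epithelia, MIR375 of islets, and MIR367, MIR371A, MIR372 and MIR373 of embryonic cells. Their mean log2 levels over 7 arrays ran from 6.37 for MIR375 to 7.11 for MIR373, and MIR424 at 6.62 fell inside that range. On single arrays, MIR424 lay above the lowest marker and below the highest on 6 of 7 and below all 6 on day 0. MIR424 is thus not shown to be expressed. MIR15B, with a mean of 9.45, lay above the highest marker on all 7 arrays, by 3.31 on day 8 but by 0.19 on day 22. On day 22 its spots, at 90 to 99 units, overlapped those of MIR373 (68 to 119 units) and MIR429 (71 to 95 units). MIR15A, with a mean of 7.83, lay above the highest marker on days 0 to 10, by 0.53 to 1.79, and below it on day 22, where 4 of 6 markers were above MIR15A.

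**Figure D2:**
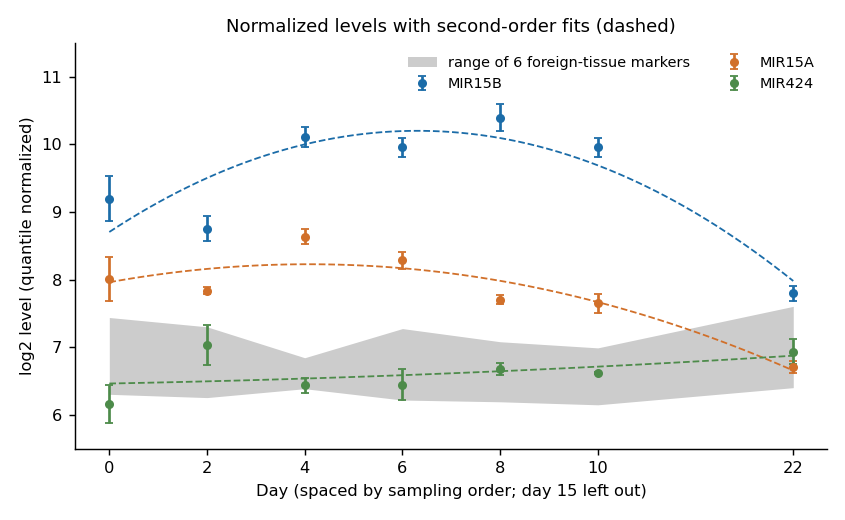
Quantile-normalized log2 level against day for the 3 genes (points, mean of 3 spots; bars, SD of 3 spots), with second-order fits over 7 arrays (dashed) and the range of 6 markers of foreign tissues (grey). MIR15B reaches 10.39 on day 8 and ends at 7.80, MIR15A enters the grey range on day 22, and MIR424 stays at or below the top of that range throughout.

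The place of a gene among all features of its array does not depend on the zero or the scale of that array. MIR15B ranked 13, 16, 7 and 8 among all features on days 0, 2, 4 and 6, then 5, 8 and 45 on days 8, 10 and 22, where rank 1 is the brightest. MIR15A ranked 36, 42, 18 and 26 on days 0, 2, 4 and 6, then 51, 52 and 134 on days 8, 10 and 22. MIR15B was thus nearest the top on day 8 and MIR15A on day 4, and both were farthest from it on day 22. MIR424 ranked between 105 on day 2 and 199 on day 0.

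The share of the summed intensity of an array, taken above its dimmest spot, gave a like picture for MIR15B. The share was 1.09%, 1.01%, 2.64% and 2.53% on days 0, 2, 4 and 6, and 3.74%, 2.37% and 0.573% on days 8, 10 and 22. The share of MIR15A ranged from 0.313% on day 22 to 0.794% on day 4, and that of MIR424 from 0.0794% on day 0 to 0.353% on day 22. From day 10 to day 22, where the span from dimmest to brightest spot went from 2098 to 554 units, the rank of MIR15B went from 8 to 45 and its share from 2.37% to 0.573%.

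**Figure D3:**
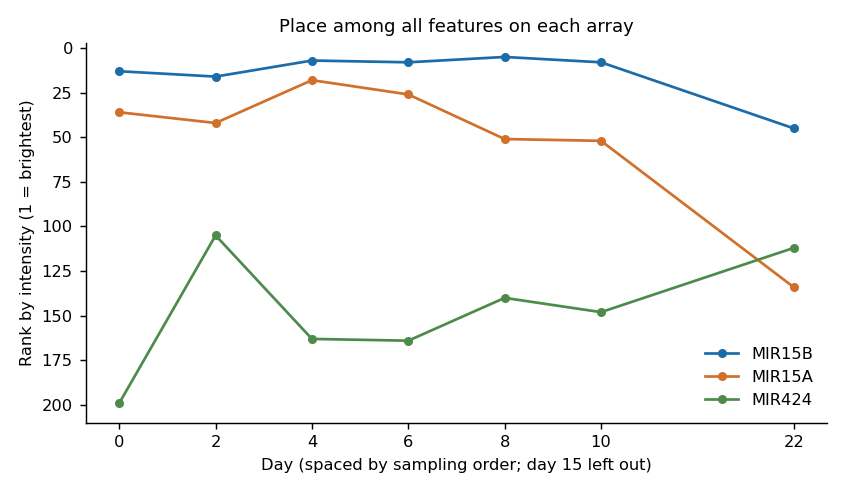
Rank of each gene by intensity among all features of its array (1 is the brightest, axis reversed) against day. MIR15B stays between 5 and 16 until day 10 and is 45 on day 22, MIR15A moves from 18 on day 4 to 134 on day 22, and MIR424 lies between 105 and 199.

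Against the uninduced cells, MIR15B was higher from day 4 to day 10 and lower on days 2 and 22. The log2 differences from day 0 were -0.44, 0.91 and 0.76 on days 2, 4 and 6, and 1.19, 0.76 and -1.40 on days 8, 10 and 22, and all 3 spots had the sign of the mean on each of these days. For MIR15A the difference was 0.63 on day 4, -0.35 on day 10 and -1.29 on day 22, with 3 of 3 spots of that sign, whereas on days 2, 6 and 8 (-0.17, 0.28 and -0.30) only 2 of 3 spots had the sign of the mean. The normalized mean of MIR424 was above its day 0 value on all 6 later arrays, as that of 11.6% of all features was, but on days 4 and 6 with 2 of 3 spots. Since MIR424 lay below all 6 foreign markers on day 0 and within their range afterwards, these differences do not show a change in its level. In units above the dimmest spot MIR424 was above day 0 on 4 later arrays and below it on days 8 and 10.

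Differences of at least 1 log2 unit from day 0 were few in the 3 genes. This size was reached upwards by MIR15B on day 8, as by 2.42% of all features, and downwards by MIR15B and MIR15A on day 22, where 12.1% did. With 1 array per day, these differences have no replicate check. Averaged over 6 later arrays, the difference from day 0 was 0.30 ± 0.26 for MIR15B, -0.20 ± 0.36 for MIR15A and 0.53 ± 0.32 for MIR424 (SD, n = 3 spots), against a median of 0.05 over all features. The value for MIR15B was 0.17 without normalization or with median centring and 0.09 after subtraction of the 75th percentile.

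The scaling between arrays changed the direction of some single-day differences. Without normalization MIR15B was 0.09 above day 0 on day 2 and -0.06 from it on day 10, and MIR15A was 0.67 above day 0 on day 2. The unnormalized difference of MIR15B was 2.05 on day 4 and -2.65 on day 22, and that of MIR15A was 1.65 and -1.94, so both genes were above day 0 on day 4 and below it on day 22 with and without normalization.

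After normalization the steps between successive arrays had the same sign in MIR15B and MIR15A, except from day 6 to day 8. From day 0 to 2, 4 to 6 and 8 to 10 both stepped down. These steps were -0.44, -0.16 and -0.44 for MIR15B and -0.17, -0.35 and -0.05 for MIR15A. The MIR15A steps of -0.17 and -0.05 were smaller than their spot SDs of 0.30 and 0.09. From day 2 to day 4 MIR15B had a step of 1.36 ± 0.10 on the log2 scale and MIR15A one of 0.80 ± 0.15 (SD, n = 3 spots). From day 6 to day 8 MIR15B had a step of 0.44 ± 0.19 and MIR15A one of -0.58 ± 0.12 (SD, n = 3 spots). From day 10 to day 22 the steps of both were negative, at -2.16 ± 0.17 and -0.94 ± 0.15 (SD, n = 3 spots). A step of at least 1 log2 unit down from day 10 to day 22 was seen in 13.0% of all features, and among the 3 genes in MIR15B. Without normalization the step from day 6 to day 8 was -0.28 for MIR15B and -1.24 for MIR15A, against a median of -0.47 over all features, so the opposite signs were not seen there. This step also joins the 2 sets of arrays that differ in spot order, and the part of that split in it was not tested.

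No steady rise or fall of the family was found over the course. In limma's trend test on the sampling order, expressed as the fitted log2 change over 7 steps, MIR15B had -0.64 ± 0.92, MIR15A -1.27 ± 0.48 and MIR424 0.41 ± 0.36 (SE, n = 7 arrays). The adjusted p-values were 0.812, 0.381 and 0.697 (limma, Benjamini-Hochberg over all features), so 0 of the 3 passed, where 0.483% of all features did. MIR15A had an unadjusted p of 0.0276 in this limma test, below 0.05, as had 10.6% of all features. Without day 22 its trend was -0.54 ± 0.61 (SE, n = 6 arrays, limma adjusted p = 0.809). The median fitted change was -0.64 over the 3 genes and 0.03 over all features. The value for MIR15B depended on the arrays used: scaled to the same 7 steps, without day 22 it was 1.82 ± 0.66 (SE, n = 6 arrays, limma adjusted p = 0.341), and within days 8 to 22 it was -6.27 ± 0.77 (SE, n = 3 arrays, limma adjusted p = 0.0799).

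The course of MIR15B bent downwards by the test of curvature, which does not tell a peak in the middle from a late drop. The second-order term of limma's fit was -1.94 ± 0.41 for MIR15B (SE, n = 7 arrays, limma adjusted p = 0.0450, Benjamini-Hochberg). A negative term means that the fitted course bends downwards, as in a peak or a late drop. A positive term means that it bends upwards, as in a trough or a late rise. The fitted curve started at 8.70 on day 0, was highest at 10.20 between days 6 and 8 and ended at 7.98 on day 22. MIR15A had a second-order term of -0.82 ± 0.30 (limma adjusted p = 0.198) and MIR424 one of 0.06 ± 0.31 (limma adjusted p = 0.924), and neither passed. Of all features 2.90% passed this test and 1.45% passed with a negative term. The pattern of MIR15B was known when the gene was chosen, so its count of 1 in 3 supports nothing further.

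The downward bend of MIR15B rested on single arrays, day 22 above all. Without day 22 the second-order term was -0.42 ± 0.38 (SE, n = 6 arrays, limma adjusted p = 0.764). The call was also lost without day 4, day 6 or day 8, with limma adjusted p-values of 0.143, 0.125 and 0.113, although the term stayed between -1.83 and -1.58. The call was kept without day 0, day 2 or day 10, at limma adjusted p-values of 0.000658, 0.0123 and 0.0345. Over all features the curvature test called 48, 12 and 7 there, against 6 with all arrays. It called 0 without day 4, day 6, day 8 or day 22. The kept and lost calls thus went with the count over all features and are not particular to MIR15B. With a term that sets days 8 to 22 apart from days 0 to 6 the second-order term of MIR15B was -1.94 ± 0.37 (limma adjusted p = 0.0157). There 17 of all features were called. MIR15A and MIR424 had -0.83 and 0.06 with that term, against -0.82 and 0.06 in the fit as reported. At these positions the split is nearly unrelated to the second-order shape, so this fit cannot show whether the bend depends on the split. Within days 0 to 6 the second-order term was 0.14 ± 0.36 (SE, n = 4 arrays, limma adjusted p = 0.985). The polynomial has unit length over the arrays used, so the size of a term from fewer arrays is not on the scale of the full fit. Each of the 3 spots by itself gave a negative term, from -2.07 to -1.77, with limma adjusted p-values of 0.00943 to 0.0436. Over all features the spots 1, 2 and 3 called 15, 6 and 11. The spots share the same arrays, so their likeness covers spotting and reading only. Over 23 alternatives the limma adjusted p ranged from 0.000658 to 0.985.

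**Figure D4:**
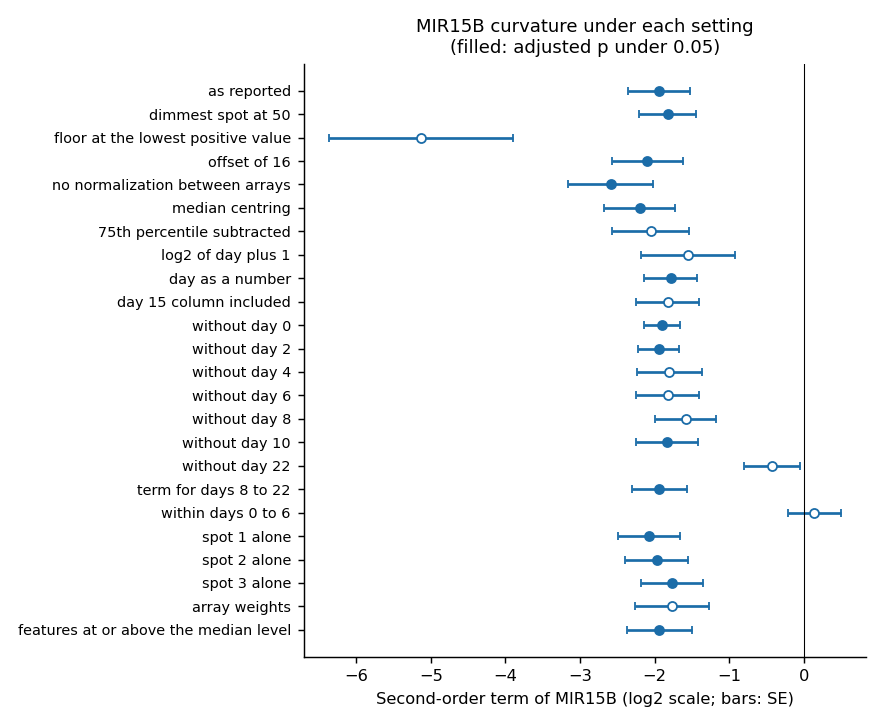
Second-order term of MIR15B (points, log2 scale, with SE as bars) in the fit as reported and in each alternative. Filled points have a limma adjusted p under 0.05, and negative values mean a downward bend. The term lies near -2 in most settings, is -0.42 without day 22 and 0.14 within days 0 to 6, and is -5.13 where values at or below the array mean are set to a floor.

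A ratio of 2 genes in units above the dimmest spot is free of any constant scaling of that array. The log2 differences are not, because they follow an offset and quantile normalization. On day 22 MIR15B minus MIR15A was 0.67 without normalization and 1.09 with it. MIR15B stood farther above MIR15A on days 8 and 10 than on the other days. The log2 level of MIR15B minus that of MIR15A was 1.19, 0.92, 1.48 and 1.67 on days 0, 2, 4 and 6, and 2.69, 2.30 and 1.09 on days 8, 10 and 22. In units above the dimmest spot the ratio was 2.74, 1.69, 3.32 and 4.26 on days 0, 2, 4 and 6, and 11.1, 6.12 and 1.83 on days 8, 10 and 22. On days 8 and 10, where it was highest on both scales, MIR15A gave 93.0 and 101 units. Both days belong to the set of arrays whose spot order differs from days 0 to 6. On day 22 MIR15A lay within the range of the foreign markers, so the ratio of that day sets MIR15B against a signal not above theirs. Only the change of such a ratio with time can be read, since the probes differ in affinity.

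The difference between MIR15B and MIR15A did not pass a test. Over 3 pairs and 2 coefficients, tested by an exact two-sided permutation over 5040 orderings of the arrays, 0 of 6 passed after Benjamini-Hochberg adjustment. For MIR15B minus MIR15A the second-order term was -1.11 ± 0.52 (SE, n = 7 arrays, exact permutation p = 0.0853, adjusted 0.171) and the trend 0.63 ± 0.81 (exact permutation p = 0.463, adjusted 0.470). Without normalization its second-order term was -1.57 ± 0.63 (exact permutation p = 0.0450, adjusted 0.137). The courses of MIR15B and MIR15A are therefore not shown to differ from each other, and the SEs are too wide to show that they were alike. The other 4 tests set MIR15B or MIR15A against MIR424, whose signal was not above that of the foreign markers, so they are not a comparison of expressed genes. Their adjusted exact permutation p-values ran from 0.171 to 0.470, with second-order terms of -1.99 ± 0.81 for MIR15B minus MIR424 and -0.88 ± 0.57 for MIR15A minus MIR424 (SE, n = 7 arrays), and nothing is drawn from them.

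**Figure D5:**
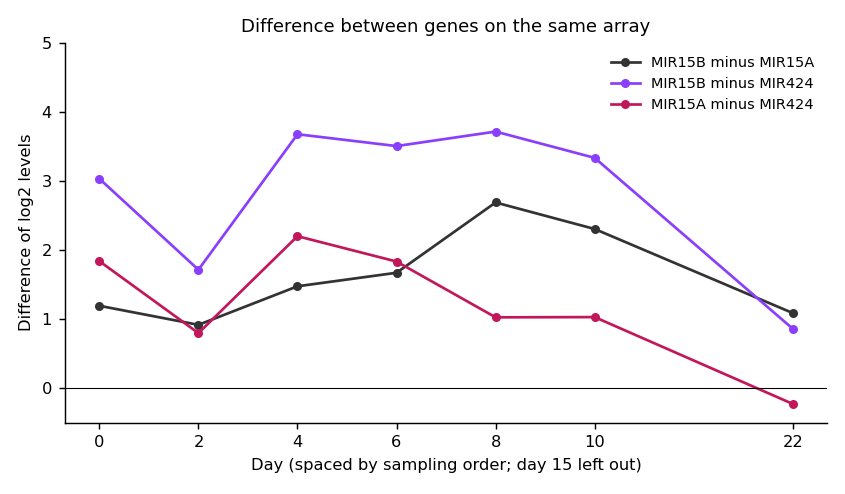
Difference of log2 levels between 2 genes on the same array, for 3 pairs, against day. MIR15B minus MIR15A is highest on day 8 (2.69) and is 1.09 on day 22, where MIR15A lies within the range of the foreign markers; MIR424 lies within or below that range on all 7 arrays, so its 2 lines show MIR15B and MIR15A against a background-like signal.

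Likeness of time courses was measured as the root mean square difference of log2 levels over 7 arrays after each gene was centred on its own mean, so smaller is more alike. Among 66 other named features, the most like MIR15B were MIR25 (0.502), MIR21 (0.518) and MIR22 (0.524), against a median of 0.985. MIR25 is hosted by MCM7, a DNA replication gene, MIR21 is abundant in many tumours, and MIR22 is known from red cell precursors. MIR15A came 7th, at 0.608. For MIR15A the nearest were MIR25 (0.346), MIR93 (0.420) and MIR331 (0.465), against a median of 0.709, and MIR15B came 16th. MIR93 is a neighbour of MIR25 in the same host gene. For MIR424 they were MIR425 (0.131), MIR323A (0.172) and MIR379 (0.173), against a median of 0.383, all of them dim, with no more than 312 units on any array. Without normalization MIR25 stayed among the nearest 3 of both MIR15B and MIR15A, the other 4 names changed, and for MIR424 both MIR425 and MIR323A stayed. Without day 22 the nearest to MIR15A were 3 other genes, MIR372 (0.174), MIR375 (0.297) and MIR335 (0.301), while MIR25 and MIR22 stayed with MIR15B and MIR425 with MIR424. Since MIR372 and MIR375 are foreign markers, the centred course of MIR15A over days 0 to 10, its high value on day 4 included, was nearest to those of probes whose targets are not expected in these cells.

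The genes that lie beside these 3 were mostly not among the named features. Of 9 genes listed for the family, which included MIR503 with the related seed AGCAGCG, 3 were among the named features. Of MIR103A1, MIR103A2 and MIR107, whose mature forms begin with AGCAGCA at base 1, 0 were. Another 140 features carried no gene symbol, so a gene outside the named features may still have been on the array. MIR16-1 and MIR16-2, the partners of MIR15A and MIR15B, were not analysed here. Of the other 5 genes listed for the MIR424 region of the X chromosome, 1 was a named feature, MIR450A1. Its intensity was 279, 623, 549, 198, 127, 173 and 273 units on days 0, 2, 4, 6, 8, 10 and 22, and it was highest on days 2 and 4, as were MIR424 and all 6 foreign markers. On the normalized scale MIR450A1 had a positive second-order term (1.55 ± 0.30, limma adjusted p = 0.0332), with levels of 8.21, 7.63 and 10.12 on days 0, 6 and 22. Before day 22 its level was at most 8.43, on day 2. Without day 4, day 6, day 8 or day 22 no feature passed the curvature test, so this call was lost there. MIR450A1 ranked 50th of 66 in likeness to MIR424.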

How the data were processed

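The authors deposited Cy3 intensity on a linear scale, relative to the mean of each array, as the values themselves show (every column averages 0). True zero and scale between arrays are thus unknown, and the scanner and its software are not given in the labels. Every 3 consecutive rows were taken as 1 feature. A single gene symbol was listed for 201 of 621 rows, several for 0 and none for 420, and all 67 symbols matched RefSeq (GRCh38.p14) by gene identifier and 0 changed. Background was corrected with normexp at an offset of 50 in limma 3.58.1 (R 4.3.3), followed by log2, quantile normalization and averaging of 3 spots. Offsets shrink differences of dim features. Trends used lmFit and eBayes on positions 0 to 5 and 7 in the sampling order (5 residual degrees of freedom), and curvature the second-order orthogonal polynomial of unit length (4). The threshold was an adjusted p of 0.05 (Benjamini-Hochberg, all features). Differences between genes were tested by exact permutation, with SEs from least squares. The tests were tested on simulated data. Figures used matplotlib 3.10.9.

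The genes, lists and tests were chosen with earlier results of these data known. Named genes were the 3 members, the measured genes of the seed and neighbour lists, the 3 most similar named features per member and the foreign markers by range; all 6 markers were named because they were few. The likeness of MIR25, MIR21, MIR22 and other similar features was described without a test. In the limma tests over all features, MIR25, MIR21 and MIR22 did not pass for trend or curvature. Their adjusted p-values for curvature were 0.311, 0.0763 and 0.216 (limma). A red cell list of 13 genes had 2 among the named features, MIR22 and MIR96, with 0 called. Alternatives covered background handling, scaling, time scale, the day 15 column, each array left out, a term for days 8 to 22 (the split seen in spot order), single spots, array weights and a level filter.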

Additional observations from a re-analysis of the deposited data

How the results depend on the processing

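The downward bend of MIR15B kept its direction in 22 of 23 alternatives and passed the limma test in 13. It did not pass with the floor (second-order term -5.13), after subtraction of the 75th percentile (-2.05), on log2 of day plus 1 (-1.56), with the day 15 column (-1.83) or with array weights (-1.77); leaving out 1 array at a time gave -1.95 to -0.42. Within days 0 to 6 signs turned: MIR15B had a trend of 2.54 and a second-order term of 0.14, MIR15A a trend of 1.14 and MIR424 a second-order term of -0.43. The pairs there had second-order terms of 0.24 (MIR15B minus MIR15A), 0.57 (MIR15B minus MIR424) and 0.34 (MIR15A minus MIR424), and trends of 2.37 and 0.97 for the latter pairs. The trend of MIR15B minus MIR15A was -0.19 with the floor, -1.12 with the term for days 8 to 22 and -3.81 within days 8 to 22. MIR15B had a trend of 0.45 with array weights. MIR424 had a trend of -0.85 and a second-order term of -0.23 without normalization, and second-order terms of -0.057 on log2 of day plus 1, -0.15 on spot 2 and -0.033 on spot 3. Leaving out 1 array gave ranges of -1.20 to 1.82 (MIR15B trend), -0.16 to 0.44 (MIR424 second-order term), -1.25 to 0.15 (MIR15B minus MIR15A, second-order) and -1.86 to 1.55 (MIR15B minus MIR424, trend). It also gave -1.71 to -0.54 (MIR15A trend), 0.12 to 0.66 (MIR424 trend), 0.27 to 2.37 (MIR15B minus MIR15A, trend), -2.34 to -0.27 (MIR15B minus MIR424, second-order), -2.13 to -0.81 (MIR15A minus MIR424, trend) and -1.10 to -0.42 (MIR15A minus MIR424, second-order). The cause was not tested. None of these turned or lost values passed, and the 5 uncalled trends and second-order terms of the genes stayed uncalled in every alternative run.

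Over all features the trend called 1 and the curvature 6; across alternatives these counts ran from 0 to 10 and from 0 to 48. With the floor all MIR424 spots were equal, so it had no trend there. MIR424 lay under the level filter, and curvature within days 8 to 22 could not be fitted to 3 arrays. No paired analysis was possible because each time point had 1 array. The mean differences from day 0 moved by less than the spot SD in 4 alternatives, although that of MIR15B ranged from 0.09 to 0.30.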
